A study of Psammomys obesus with 8 samples.

Results

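The long contigs without a mouse match are stretches of assembled DNA of the fat sand rat, *Psammomys obesus*, that are at least 1500 bases long and whose names in the deposited table carry no matching position in the mouse genome. There were 1477 of them among 548060 contigs, and the other 4754 contigs of that length had a mouse match. The fat sand rat is a desert gerbil used as a model of obesity and diabetes brought on by diet. Methylated DNA of the hypothalamus was captured with MethylMiner, sequenced, and counted over each contig in 8 libraries. All libraries came from male offspring aged 16 weeks, and 4 belonged to the low-low group (Low-Low lipid in the labels, diet tag Low lipid) and 4 to the standard-low group (Standard-Low lipid, diet tag Standard Lipid). The series asks how the diet of the parents, in its design text that of the father, relates to DNA methylation in the hypothalamus of the offspring. The labels do not say which word of a group name belongs to which generation, and do not state that the replicates of a group are different animals, so the p-values reflect library-to-library spread, part of which may be technical.

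In mammals, DNA methylation sits mostly on the cytosine of CpG dinucleotides, and methylated cytosine mutates readily to thymine, so most of the genome holds fewer CpGs than its base composition would give. MethylMiner uses the methyl-CpG binding domain of the protein MBD2 to pull down double-stranded fragments, and fragments with more methylated CpGs bind more strongly. Methylated DNA of a mammalian genome includes much of its repeated sequence, among it satellites, which are long arrays of one short unit repeated head to tail, and these arrays change faster between species than genes do.

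The sequences below show the repeat units on which the description of the members turns, taken from the deposited contigs, 5′ to 3′ on the strand of the contig, with CpG in capitals. Positions count from 1 at the first base of the contig, and no genome position is used here for them. The first pair, at bases 1 to 254 of contig 3806032, are neighbouring copies of a 127-base unit that recurred in the largest group of related members:
3806032 unit 1: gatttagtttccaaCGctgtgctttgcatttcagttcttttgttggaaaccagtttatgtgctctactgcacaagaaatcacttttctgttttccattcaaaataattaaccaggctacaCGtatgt
3806032 unit 2: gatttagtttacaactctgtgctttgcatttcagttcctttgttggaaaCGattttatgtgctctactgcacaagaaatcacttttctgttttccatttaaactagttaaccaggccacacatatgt
The next 4 are neighbouring copies of a 37-base unit at bases 1419 to 1566 of contig 4227858, in which the number of CpGs varied from 3 to 0 between copies:
4227858 unit 1: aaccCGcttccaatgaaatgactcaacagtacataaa
4227858 unit 2: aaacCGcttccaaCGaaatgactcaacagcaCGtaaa
4227858 unit 3: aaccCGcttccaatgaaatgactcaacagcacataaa
4227858 unit 4: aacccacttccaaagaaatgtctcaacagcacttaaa
Contigs 343010 and 3308094 had the highest capture per base of all members, and their units of 22 and 42 bases are shown from bases 367 and 748:
343010 unit 1: cctgttacatgcctgatacatg
343010 unit 2: cctgtcacacccctgctacaCG
343010 unit 3: cctgtcacctgcctgctacatg
3308094 unit 1: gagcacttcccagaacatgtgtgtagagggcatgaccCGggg
3308094 unit 2: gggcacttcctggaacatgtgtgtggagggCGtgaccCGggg
3308094 unit 3: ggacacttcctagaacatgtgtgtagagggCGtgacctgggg
Contig 875280 repeated at 84 bases, and its copies from base 1099, with 4, 6 and 5 CpGs, belong to a contig whose translation resembled zinc finger genes:
875280 unit 1: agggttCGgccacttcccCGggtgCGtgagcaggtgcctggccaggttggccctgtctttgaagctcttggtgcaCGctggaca
875280 unit 2: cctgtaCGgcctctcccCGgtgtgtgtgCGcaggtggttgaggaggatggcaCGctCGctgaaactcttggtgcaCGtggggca
875280 unit 3: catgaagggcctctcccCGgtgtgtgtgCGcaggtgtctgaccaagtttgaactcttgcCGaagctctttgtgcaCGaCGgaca
Contigs 602604 and 518908 were, by unadjusted p, the leading members lower and higher in standard-low without overlap of the groups. Their 150-base windows richest in CpG, from bases 628 and 216, held 11 and 7 CpGs:
602604 window: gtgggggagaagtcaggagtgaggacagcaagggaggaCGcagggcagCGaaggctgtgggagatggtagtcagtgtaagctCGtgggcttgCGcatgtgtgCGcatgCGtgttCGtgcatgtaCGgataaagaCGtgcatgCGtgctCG
518908 window: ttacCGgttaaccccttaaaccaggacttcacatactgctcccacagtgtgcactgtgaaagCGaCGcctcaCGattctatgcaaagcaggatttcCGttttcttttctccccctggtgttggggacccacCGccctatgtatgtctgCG

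Summed counts over all contigs were 12528388 to 13533441 in the low-low libraries and 11646180 to 12156525 in the standard-low libraries. Levels are given as CPM, that is counts scaled to a common library size by the library total times edgeR's TMM factor, and capture density is CPM per kilobase of contig. The members took 1.03% to 1.12% of the counts of a library. A mean of 86.9 counts per library lay on the median member, against 17.4 on the median contig of the table, and the SD of log2 CPM over the 8 libraries was 0.191 at the median member against 0.359 over all contigs. A count of captured DNA carries the methylation of a sequence together with its amount, and in bulk tissue methylation per cell, the mix of cells and the number of copies cannot be told apart. DNA counts hold no expression markers, so the tissue label was not checked against them.

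The label of the members rests on the contig names alone, and a missing match became rarer as contigs grew longer. Of the contigs of 100 to 499 bases 70.4% had no match, of those of 500 to 999 bases 52.4%, of those of 1000 to 1499 bases 34.9%, and of those of 1500 bases or more 23.7%. In long contigs that did have a match with a named gene, the aligned stretch covered a median of 532 bases or 28.2% of the contig, and in 814 of 4747 it was under 100 bases. A match therefore rested on a minor stretch of most long matched contigs, and how far the members differ from mouse sequence was not analysed here.

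In base composition the members resembled the long matched contigs. Median GC content was 50.4% in members (range 29.0% to 65.6%) and 50.9% in long matched contigs, and median CpG density was 2.55 and 2.59 per 100 bases. The ratio of observed CpG to the number expected from the C and G content had a median of 0.408 in members and 0.402 in long matched contigs, so both were depleted of CpG. Median length was 1692 bases in members, the longest member being contig 4612043 with 4070 bases.

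The median capture density of members was 4.001, 4.04, 4.04 and 4.09 CPM per kb in low-low 1 to 4 and 3.91, 3.74, 4.08 and 3.87 in standard-low 1 to 4. Standard-low 2 was the lowest library and standard-low 3 lay within the low-low range. The median member stood at 0.978 to 1.04 times the median long matched contig across the 8 libraries, and at 0.992 times over their means. The members lay slightly below the long matched contigs in 7 of the 8 libraries and above them in standard-low 2.

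Capture density followed CpG density. With the members ordered by CpG density and cut into 5 bins of 295 or 296, the median went from 2.96 CPM per kb in the lowest bin through 3.72, 4.03 and 4.48 to 4.90 in the highest. Long matched contigs within the same bounds gave 2.98, 3.68, 4.06, 4.42 and 4.92. As a description over contigs, which share their 8 libraries, Spearman's rho of capture density with CpG density was 0.614 over the 1477 members and 0.602 over the 4754 long matched contigs. With GC content it was 0.486 in members and 0.528 in long matched contigs, with the observed over expected ratio 0.335 and 0.264, and with length 0.168 and 0.131.

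**Figure D1:**
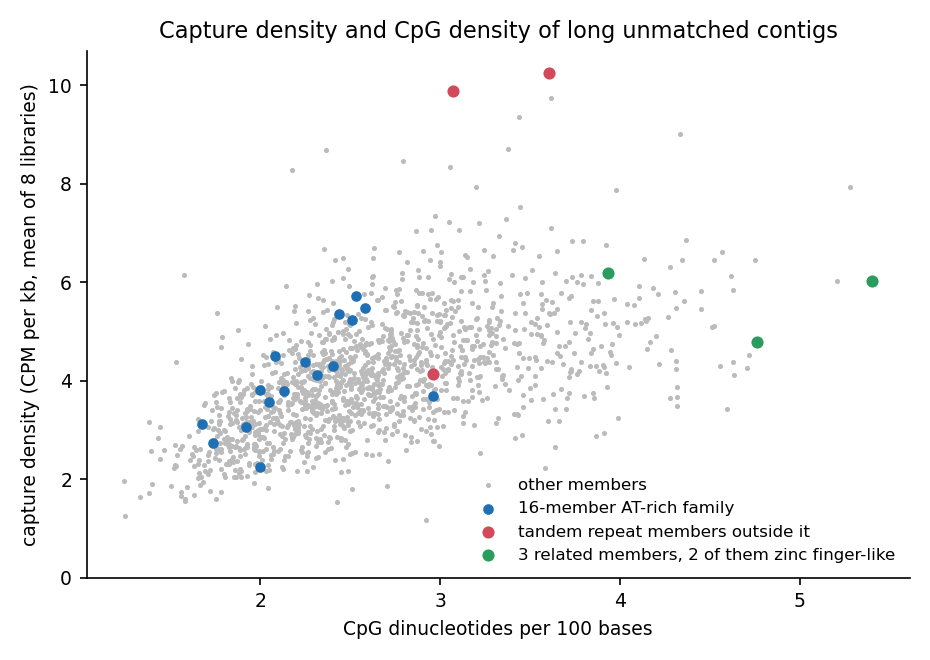
Capture density (CPM per kb, mean of 8 libraries) of each of the 1477 members against its CpG dinucleotides per 100 bases, with the 16-member AT-rich family, the 3 other tandem repeat members and a related group of 3 with 2 zinc finger-like members in colour. Density rises with CpG density (Spearman's rho 0.614), and tandem contigs 343010 and 3308094 lie highest, at 10.2 and 9.87 CPM per kb.

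The members with the highest capture density were 343010, 3308094, 45853, 289799 and 2079424, at 10.2, 9.87, 9.73, 9.34 and 8.9997 CPM per kb, against a median of 3.99 over members. The first pair were tandem repeats, while the other 3 had no detectable short repeat, GC contents of 51.3%, 58.7% and 60.2% and CpG densities of 3.62, 3.44 and 4.33 per 100 bases. In contig 45853 a 150-base window from base 1082 held 15 CpGs, and the window is shown because it is the densest printed here:
45853 window: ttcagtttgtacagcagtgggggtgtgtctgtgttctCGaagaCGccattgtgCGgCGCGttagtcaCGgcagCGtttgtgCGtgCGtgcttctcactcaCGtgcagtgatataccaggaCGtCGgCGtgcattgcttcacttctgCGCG
Contig 45853 had 34.8, 34.9, 31.0 and 30.2 CPM in low-low 1 to 4 and 34.3, 26.3, 26.9 and 29.2 CPM in standard-low 1 to 4, and its groups overlapped. The lowest capture densities were 1.16, 1.26 and 1.54 CPM per kb at contigs 1567069, 3100352 and 2761010. Contig 3100352 had 19 CpGs in 1522 bases, and no member had a smaller number, whereas contig 1567069 had 2.92 CpGs per 100 bases, above the median member.

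The 5 longest members, contigs 4612043, 3237853, 1167328, 3221810 and 4493125, were 4070, 3665, 3550, 3486 and 3462 bases long, with capture densities of 5.06, 4.23, 4.01, 3.42 and 4.37 CPM per kb. None of them had relatives in the table, and their longest open reading frames spanned 462 to 570 bases. Contigs 946466 and 3100359 were the steadiest across libraries, with an SD of log2 CPM of 0.0516 and 0.0525. The widest spreads were 0.490 at contig 518908, 0.471 at 875280, 0.455 at 3087040 and 0.455 at 1567069. Members at the length bound, contigs 170748, 2643265 and 2680198 with 1500 bases, had 4.34, 3.12 and 2.93 CPM per kb, and the unmatched contigs 499111, 578012 and 932894 with 1499 bases had 6.24, 3.52 and 5.93.

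The observed over expected CpG ratio separated members with and without CpG depletion. It was highest at contig 4424772 (1.19), followed by 4227858 (0.931) and 4493108 (0.773), and lowest at contigs 3031003 (0.211), 1501652 (0.224) and 1067231 (0.250). Contig 4424772 was also the member richest in A and T, with a GC content of 29.0%, and its window from base 1008 is shown for the contrast with the GC-rich windows above, its 7 CpGs standing among A and T:
4424772 window: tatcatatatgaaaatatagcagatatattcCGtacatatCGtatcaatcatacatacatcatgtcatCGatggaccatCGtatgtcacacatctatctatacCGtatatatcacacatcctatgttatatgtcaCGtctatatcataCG
Its capture density of 4.72 CPM per kb lay above the median member. The 3 members with the lowest ratios had GC contents of 52.0%, 53.6% and 56.7% and densities of 2.83, 2.40 and 3.40 CPM per kb.

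By sequence, some members fell into kinds that can overlap, and 9 members were of more than 1 kind. Of the members, 4 were tandem repeats, with at least 50% of bases repeating at a period of at most 60 bases, and none of the long matched contigs were. CpG-rich contigs, with GC of at least 50% and an observed over expected ratio of at least 0.6, as in the CpG islands of promoters, numbered 12 members (0.812%) and 37 long matched contigs (0.778%). At least 200 bases at 80% identity were shared with another contig of the table by 47 members (3.18%), tandem repeats 3308094 and 4227858 among them, and by 216 long matched contigs (4.54%). A reading frame of at least 600 bases without a stop codon was found in 134 members (9.07%) and 746 long matched contigs (15.7%). The remaining 1291 members (87.4%) had none of these features, and no member had an observed over expected ratio under 0.1.

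The tandem repeats were contigs 343010, 3308094, 165084 and 4227858, in which 85.0%, 71.8%, 78.8% and 84.02% of bases repeated. Contig 165084 consisted largely of a purine-rich repeat, of which these 20-base stretches from base 1301 are shown for their runs of g and a:
165084 unit 1: cagatggatggagagatggg
165084 unit 2: ctgatggagggagggacaga
165084 unit 3: gggagggaCGgaaggacaga
Contigs 343010 and 165084 had no relative in the table and contig 3308094 had 3, whereas contig 4227858 had 58. Despite a similar CpG density, contigs 4227858 and 165084 were captured at 3.69 and 4.14 CPM per kb, less than 3308094 at 9.87.

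A longer period was sought by setting each contig against itself at shifts of 61 to 400 bases. The median member was identical to itself at 28.7% of bases at its best shift, 22 members reached at least 40%, and the next one below had 37.7%. Of the 22, 16 were the members of the largest related group, contigs 16701, 464445, 634449, 634625, 754611, 1460635, 1881871, 1899552, 3716566, 3806032, 3892714, 4077160, 4153980, 4218858, 4227858 and 4374469. Among the long matched contigs 9 reached 40%, and in 8 of these the best shift was a multiple of 84 bases, the length of DNA that encodes 1 zinc finger and its linker.

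**Figure D2:**
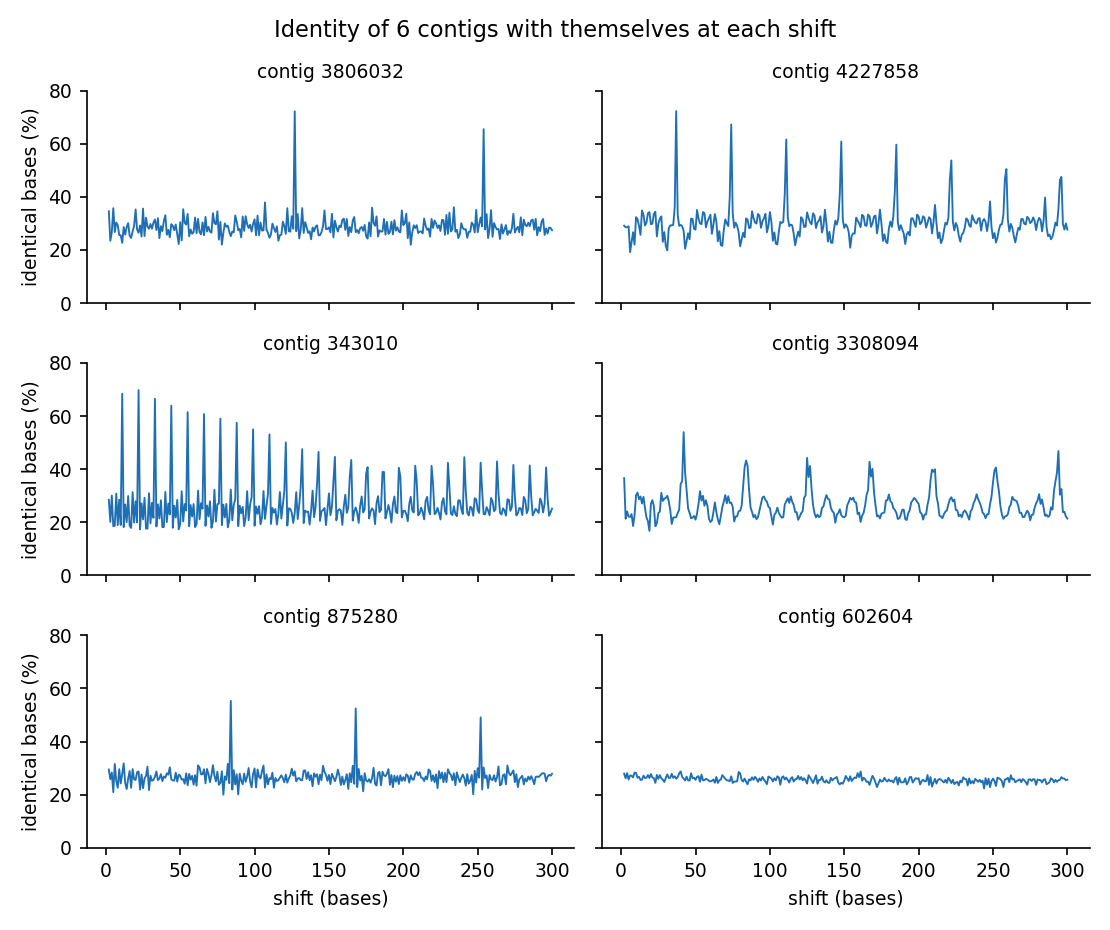
Share of identical bases (%) when each of 6 members is set against itself at shifts up to 300 bases. Contig 3806032 peaks at 127 and 254 bases (72.2% and 65.5%), 4227858 at multiples of 37, 343010 at multiples of 11, 3308094 at 42 and 875280 at multiples of 84, while 602604 has no peak.

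Related groups joined members, directly or through other members, by alignments of at least 200 bases in a search with no identity minimum. The largest related group is called the AT-rich family here. Its 16 members had GC contents of 34.7% to 40.02%, with a median of 37.03%, and observed over expected CpG ratios of 0.507 to 0.931, with a median of 0.681, all above the median member. In 14 of them no short unit dominated, and 13 of these repeated best at 127 bases or a multiple of it, to within 1 base. Contig 3806032 was the most regular, with 72.2% identity at 127 bases, and 634449 the least, with 38.2% there and 45.2% at 375 bases. The other 2, contigs 4227858 and 634625, carried the 37-base unit, with 72.2% and 53.1% identity at 37 bases. They were placed in the family because alignments linked them to its other members in 14 pairs of contigs.

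The AT-rich family extended to 375 further contigs of the table, of which 1 had a mouse match. These had a median length of 366 bases, against 442 over all contigs of the table, and a median GC content of 36.6%. Contigs 4218858, 464445 and 1899552 had the most relatives, 123, 113 and 111. The assembly thus held the family mostly in short pieces, and reads from its many copies may be placed on several contigs alike, so the count of a single contig of this family is uncertain.

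Capture density in the AT-rich family ran from 2.26 CPM per kb at contig 634625 to 5.72 at 1460635. The summed level of the 16 members was 117, 126, 126 and 129 CPM in low-low 1 to 4 and 117, 143, 112 and 141 CPM in standard-low 1 to 4. The standard-low libraries lay on both sides of the low-low range. The group means were 124 ± 4.98 CPM (SD, n = 4) in low-low and 128 ± 15.8 CPM (SD, n = 4) in standard-low, a ratio of 1.03 that became 0.991 without standard-low 2 and 0.997 without standard-low 4. The 375 relatives summed to 699 ± 42.1 and 696 ± 76.3 CPM (SD, n = 4), a ratio of 0.996. At an adjusted p under 0.05 edgeR called none of them, against 147 of 548060 contigs (0.0268%). At that share a set of this size would seldom hold a call.

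Members with a long reading frame were searched for similarity of their translation to the mouse-matched contigs of the same table. The search took the whole contig, so a hit need not lie in that frame. Of the 134 members with a frame of at least 600 bases, 31 had such a hit, and in 7 it reached a bit score of 100. These 7, chosen after their values were seen, were contigs 325964, 875280, 2982243, 2488718, 2770403, 2998983 and 927136. Some members without a listed mouse match thus carried translated sequence similar to that of matched contigs.

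Contigs 325964, 875280 and 2982243 resembled genes of zinc finger proteins, DNA-binding proteins built of repeated fingers, some of which repress transposable elements. Contig 325964 was 45.1% identical to a contig in Zfp709 over 410 codons, and 875280 was 49.8% identical to a contig in Zfp27 over 283 codons. Contig 2982243 was 50.6% identical to the same Zfp27 contig over 87 codons. The frame of 875280 covered 1812 of its 1814 bases. That contig hit 254 contigs of 181 zinc finger genes, and 325964 hit 241 contigs of 174 such genes. At a shift of 84 bases 875280 was 55.3% identical to itself and 325964 45.6%.

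Of the remaining 4, contig 2488718 had a frame of 2811 bases in 3072 and was 61.9% identical over 105 codons to a contig in 4930432E11Rik. Contigs 2770403 and 2998983, related to each other in the search without an identity minimum, hit the same contig in Gm13373. They did so at 77.0% and 75.4% identity over 61 codons. Contig 927136 was 68.4% identical over 57 codons to a contig in Adrbk1, which encodes a kinase that phosphorylates active beta-adrenergic receptors. Frames open over at least 90% of the contig were found in 6 members, contigs 165084, 853860, 875280, 1891501, 2488718 and 3131874, of which 875280 and 2488718 also reached 100 bits. The tandem repeat 165084 was among them, and its translation was 39.8% identical over 83 codons to a contig in Rsph6a, at 74.8 bits.

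None of the 1477 members differed between standard-low and low-low at an adjusted p under 0.05 in edgeR's quasi-likelihood test over all contigs, against 147 of 548060 contigs (0.0268%, of which 0.0203% lay higher and 0.00657% lower). The lowest adjusted p of a member in edgeR was 0.667. DESeq2 and limma voom also called 0 members, against 0.00584% and 0.00912% of all contigs. At an unadjusted p under 0.05 in edgeR there were 85 members (5.75%), against 5.68% of all contigs. With DESeq2 the shares were 3.59% and 2.28%, and with limma voom 7.85% and 5.56%. Long matched contigs gave 6.42% in edgeR, 3.72% with DESeq2 and 9.38% with limma voom, each above the members. The members at that p in edgeR were split differently, since 12 members were higher and 73 lower in standard-low, while of all contigs 2.93% were higher and 2.76% lower. Of the long matched contigs 60 were higher and 245 lower. With contigs kept only at a mean of at least 20 counts, which changes the scaling factors, the split was 26 higher and 45 lower. These were 4.81% of members, against 5.56% of the 221973 contigs kept, with 6318 higher and 6031 lower. Long matched contigs gave 5.38%, with 108 higher and 148 lower. The median log2 fold change was -0.05 over members and 0.00 over all contigs, and 36.97% of members had a positive value against 50.3% of all contigs. With the filter at 20 counts the median over members was -0.02 and 45.6% were positive.

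**Figure D3:**
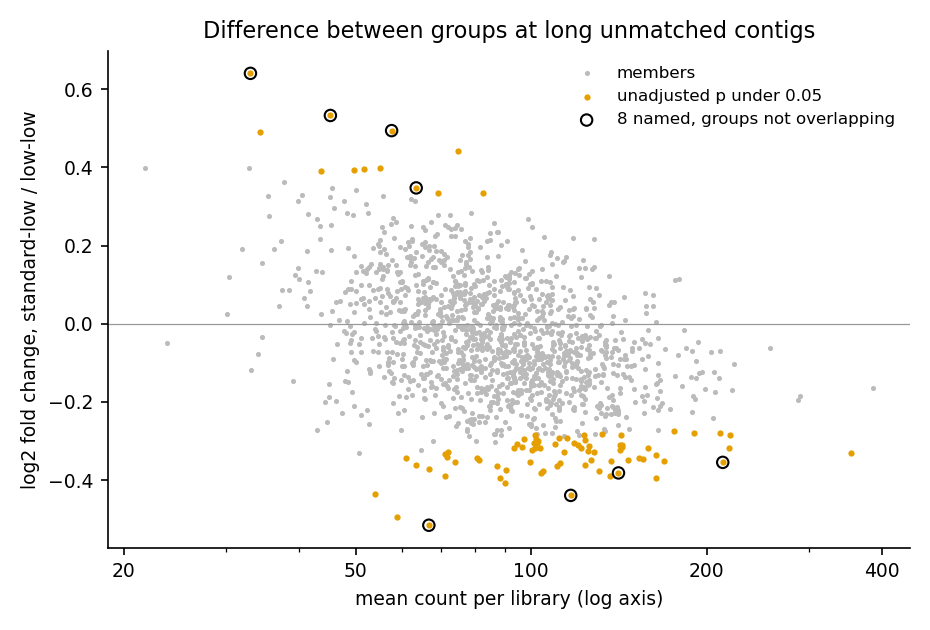
Log2 fold change of standard-low over low-low (edgeR) against the mean count per library (log axis) for the 1477 members, with the 85 at an unadjusted p under 0.05 in orange and 8 members whose groups did not overlap circled. No member passed the adjusted threshold, and 73 of the 85 lie below 0.

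The CPM ranges of the groups did not overlap in 60 members (4.06%), 13 higher and 47 lower in standard-low, against 3.24% of all contigs, 1.63% higher and 1.61% lower. Among long matched contigs it was 183 (3.85%), 53 higher and 130 lower. The excess of lower members was thus shared with long contigs that had a mouse match. The difference between members and matched contigs was not tested.

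The 4 members with the smallest unadjusted p among those lower in standard-low without overlap were contigs 602604, 3099973, 3603057 and 2761022. Contig 602604 had counts of 140, 147, 141 and 131 in low-low 1 to 4 and 94, 96, 96 and 90 in standard-low 1 to 4. Its level was 10.7 ± 0.526 CPM in low-low and 7.93 ± 0.221 CPM in standard-low (SD, n = 4), with a log2 fold change of -0.44 (SE 0.14, edgeR unadjusted p = 0.00195, adjusted p = 0.667). The gap between the groups was wider than either group's range, and yet it did not pass across the table.

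Contig 3099973 had counts of 93, 67, 78 and 88 in low-low and 58, 51, 56 and 43 in standard-low, a log2 fold change of -0.52 (edgeR adjusted p = 0.683). Contig 3603057, captured at 8.71 CPM per kb, had counts of 255, 272, 232 and 236 and of 171, 189, 168 and 181, a log2 fold change of -0.35 (edgeR adjusted p = 0.756). At contig 2761022 the counts were 152, 174, 167 and 171 in low-low and 117, 102, 134 and 112 in standard-low, a log2 fold change of -0.38 (edgeR adjusted p = 0.756). All 4 were single-copy in the table, with no relative among the contigs, and their GC contents were 57.4%, 55.7%, 49.6% and 52.4%.

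The corresponding members higher in standard-low were contigs 518908, 2491732, 1976869 and 2893687. Contig 518908 had counts of 33, 30, 15 and 31 in low-low 1 to 4 and 33, 35, 44 and 43 in standard-low 1 to 4, or 2.08 ± 0.598 and 3.26 ± 0.438 CPM (SD, n = 4). Its log2 fold change was 0.64 (SE 0.21, edgeR unadjusted p = 0.00360, adjusted p = 0.736), and low-low 3 stood lowest. Its raw counts of low-low 1 and standard-low 1 were equal, and the groups separated only after scaling to library size.

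Contig 2491732 had counts of 40, 43, 43 and 30 in low-low and 54, 52, 50 and 50 in standard-low, a log2 fold change of 0.53 (edgeR adjusted p = 0.750). Contig 1976869 had 54, 61, 33 and 54 and then 68, 70, 57 and 64, a log2 fold change of 0.49 (edgeR adjusted p = 0.755). Contig 2893687 had 60, 54, 57 and 64 and then 59, 70, 80 and 64, a log2 fold change of 0.35 (edgeR adjusted p = 0.862). Raw counts of the groups overlapped at 1976869 and 2893687, which also separated only after scaling to library size. All 4 had capture densities below the median member, from 1.74 to 2.86 CPM per kb, and 1.56 to 2.17 CpGs per 100 bases, so the higher and the lower members differed in composition.

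**Figure D4:**
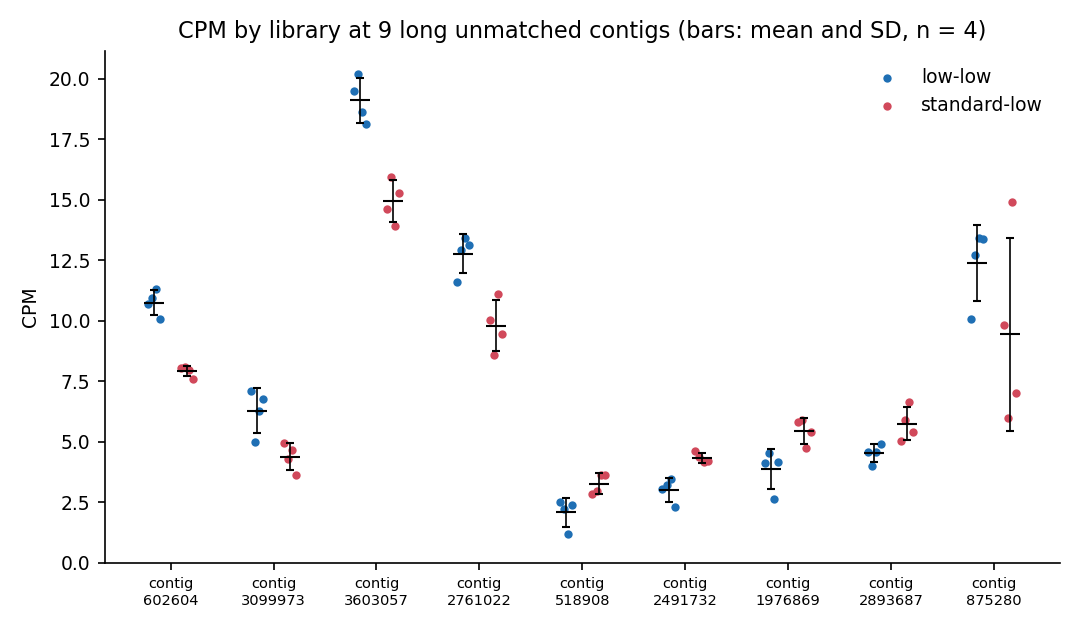
CPM in each library (points), with mean and SD (bars, n = 4), at the 8 named members whose groups did not overlap and at zinc finger contig 875280, low-low in blue and standard-low in red. The first 4 contigs are lower and the next 4 higher in standard-low, and 875280 ranges from 5.99 to 14.9 CPM within standard-low.

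The direction of the difference varied with base composition over the members. Median GC content was 45.4% in the 12 members higher at an unadjusted p under 0.05 and 54.4% in the 73 lower ones. In 4 bins of 369 or 370 members by GC content, 7 were higher and 1 lower at that p in the lowest bin. The numbers were 3 and 8 in the next, 2 and 22 in the one after, and 0 and 42 in the highest. Long matched contigs within the same bounds numbered 979, 1173, 1243 and 1359. Of these, 36 and 6, 14 and 41, 9 and 53, and 1 and 145 were higher and lower. Over all contigs 2.93% were higher and 2.76% lower at that p. Over the 5 bins by CpG density, the summed CPM of standard-low over low-low had ratios of 1.03, 0.995, 0.966, 0.940 and 0.901, from the fewest CpGs to the most.

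The gradient over CpG density differed between standard-low libraries. In the bin with the most CpGs, standard-low 1 to 4 stood at 0.907, 0.806, 1.02 and 0.873 times the low-low mean, and low-low 1 to 4 at 0.968, 1.0002, 1.02 and 1.01. Standard-low 2 was farthest below and standard-low 3 lay among the low-low libraries. In the bin with the fewest CpGs the standard-low values were 1.04, 1.03, 0.987 and 1.051. In the bin highest in GC the standard-low libraries stood at 0.935, 0.783, 1.03 and 0.880, so that GC content and CpG density moved with the difference together. The part of the GC content of the captured reads in the difference between the groups was not tested.

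**Figure D5:**
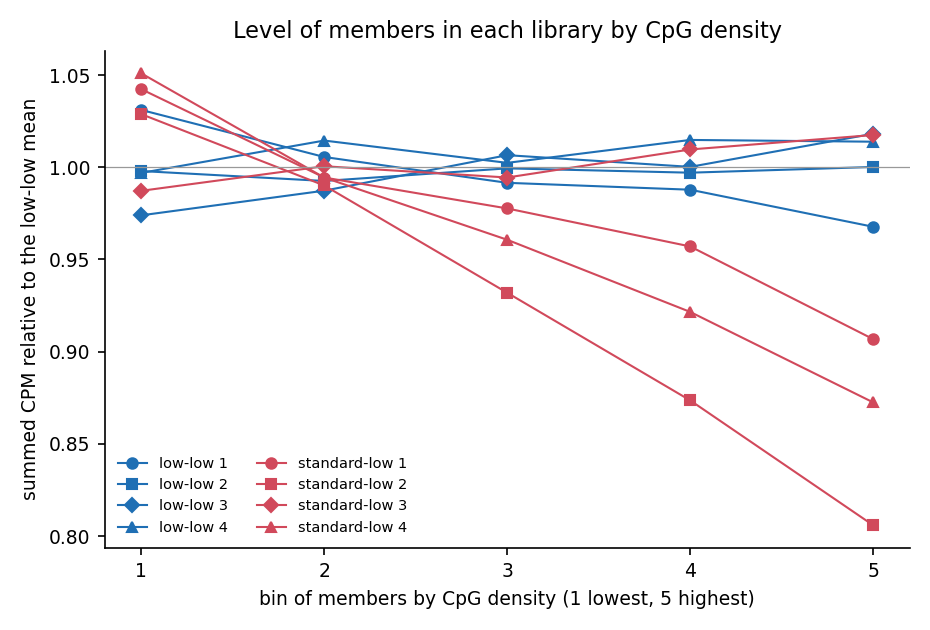
Summed CPM of the members in each of 5 bins by CpG density, in each library, relative to the mean of the 4 low-low libraries (blue low-low, red standard-low). Standard-low 1, 2 and 4 decline to 0.907, 0.806 and 0.873 in the bin with the most CpGs, while standard-low 3 stays at 1.02.

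The summed level of all members was 11084, 11145, 11176 and 11279 CPM in low-low 1 to 4 and 10790, 10150, 11217 and 10574 CPM in standard-low 1 to 4. Standard-low 3 exceeded 3 low-low libraries, so the groups overlapped, and the ratio of group means was 0.956 (11171 ± 81.6 and 10683 ± 444 CPM, SD, n = 4). For long matched contigs the ratio was 0.949. No test was made of these sums, since the members were chosen with earlier results of these data known.

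Zinc finger-like contigs 875280 and 2982243 fell into a related group with contig 1871371 in the search without an identity minimum. That contig was not searched for translated similarity, since its longest frame had 573 bases. The 3 contigs were GC-rich, at 61.6%, 60.4% and 62.3%, and each had an unadjusted p under 0.05 with a lower level in standard-low. At that p 2.76% of all contigs were lower. In the bin highest in GC, 42 of 370 members and 145 of 1359 long matched contigs were. The group was named after its values were seen. Contig 875280 had 10.1, 12.7, 13.4 and 13.4 CPM in low-low 1 to 4 and 9.84, 5.99, 14.9 and 7.01 CPM in standard-low 1 to 4, so that standard-low 3 exceeded every other library. Its log2 fold change was -0.39 (SE 0.15, edgeR unadjusted p = 0.0134, adjusted p = 0.821). Without standard-low 3 it was -0.70 with an edgeR adjusted p of 0.0213, the 1 member called when that library was left out. In that fit 207 of 548060 contigs were called.

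Contig 1871371 had 9.55, 12.3, 11.9 and 10.8 CPM in the low-low libraries and 10.01, 6.66, 11.2 and 7.94 CPM in the standard-low libraries, a log2 fold change of -0.31 (edgeR adjusted p = 0.856). Contig 2982243 had 12.7, 13.0, 13.4 and 16.6 CPM and then 11.04, 9.28, 13.0 and 10.5 CPM, a log2 fold change of -0.35 (edgeR adjusted p = 0.810). The groups overlapped through standard-low 1 and 3 in the first of these and through standard-low 3 in the second, and standard-low 2 was the lowest library in both. Zinc finger-like contig 325964, which stood outside this group with a GC content of 50.3%, had a log2 fold change of -0.31 (edgeR adjusted p = 0.871).

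Of the tandem repeats, contig 165084 had counts of 99, 85, 106 and 119 in low-low and 83, 56, 73 and 78 in standard-low, a log2 fold change of -0.36 (edgeR unadjusted p = 0.0198, adjusted p = 0.834). Contig 343010 had 28.6, 22.9, 21.9 and 24.9 CPM in the low-low libraries and 19.8, 20.1, 24.0 and 22.1 CPM in the standard-low libraries, with overlapping groups. Contig 3308094 had 23.7, 26.4, 24.3 and 24.0 CPM and then 22.8, 19.2, 23.0 and 21.7 CPM. The groups of 3308094 did not overlap, at a log2 fold change of -0.18 (edgeR unadjusted p = 0.123, adjusted p = 0.911).

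The 4 tandem repeats together reached 66.5, 63.1, 62.1 and 65.4 CPM in low-low 1 to 4 and 56.3, 49.8, 58.7 and 58.1 CPM in standard-low 1 to 4, a ratio of 0.867 without overlap. The 12 CpG-rich members summed to 85.4, 89.1, 96.7 and 94.2 CPM and to 78.2, 71.2, 92.1 and 78.2 CPM, a ratio of 0.875 in which standard-low 3 again lay among the low-low libraries. The AT-rich family had a ratio of 1.03, and contig 4227858 is in both this sum and that of the tandem repeats. Without it the ratios were 1.04 over the other 15 members of the family, with GC contents of 34.7% to 38.3%, and 0.863 over the other 3 tandem repeats, with 53.4% to 56.2%. The difference between these ratios was not tested. Within it 11 of 16 members had a positive log2 fold change, and only contig 1899552 had an unadjusted p under 0.05, with 5.96, 6.69, 5.94 and 5.07 CPM in the low-low libraries and 7.96, 8.69, 6.30 and 6.93 CPM in the standard-low libraries (log2 fold change 0.33, edgeR unadjusted p = 0.0303, adjusted p = 0.856).

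The 134 members with a long reading frame summed to 1325 ± 14.9 CPM in low-low and 1212 ± 107 CPM in standard-low (SD, n = 4), a ratio of 0.915, with 17 lower and 0 higher at an unadjusted p under 0.05. Over all 1477 members 73 were lower and 12 higher at that p, and over all contigs 2.76% and 2.93%. Their median GC content was 54.1%, against 50.03% in the 1291 members of no kind, whose ratio was 0.961. The most even of the named frames was contig 1891501, open over all its 2046 bases, with 6.34, 7.65, 7.63 and 6.60 CPM in the low-low libraries and 7.02, 7.09, 8.12 and 8.03 CPM in the standard-low libraries. Contig 2488718 had 13.8, 16.2, 15.7 and 15.7 CPM and then 14.4, 11.5, 13.5 and 11.5 CPM, a log2 fold change of -0.27 (edgeR adjusted p = 0.864).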

How the data were processed

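The authors deposited 1 table of read counts per assembled contig, with the sequence of each contig, for 8 MethylMiner libraries prepared with Illumina's ChIP-seq kit, per the labels' protocols. FastQC and BWA are named in the submitters' processing notes. Assembler, mouse build and handling of reads with several equal placements were not given in the sources used here. The header separates the library names by spaces, so columns were read in header order. Every contig had a mean of at least 10 counts, so that filter removed 0 contigs. Of the contigs named as matching a patch sequence without a gene, 7 of at least 1500 bases were counted as matched.

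Counts were fitted with edgeR 4.0.16 (TMM, quasi-likelihood, two-sided) on all 548060 contigs in R 4.3.3, adjusted by Benjamini-Hochberg over all of them at 0.05. DESeq2 1.42.0, limma 3.58.1 voom, other scaling, filters, length bounds, a replicate block and leaving out each library were alternatives. Related contigs came from BLAST 2.17.0, at 80% identity over at least 200 bases and an E-value of at most 1e-20. Related groups among the members needed at least 200 bases at an E-value of at most 1e-10, with no identity minimum. Translated similarity used tblastx of the whole sequence of members with a long reading frame against mouse-matched contigs. The members and lists were chosen with earlier results of these data known. Contigs named were the 4 higher and 4 lower in standard-low with the smallest unadjusted p among those without overlap, the extremes of capture density, length, spread, relatives and CpG ratio, and those at the length bound. The tandem, related and translated contigs, and the contig called without standard-low 3, were added after their values were seen. Printed SDs are over 4 libraries.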

Additional observations from a re-analysis of the deposited data

Results flagged for a closer look

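Sets of 4 libraries were examined at the named contigs, the summed levels of the members and the AT-rich family, and the bins by CpG density and GC content. Of these 148 sets, 7 held 1 library whose gap to the nearest other exceeded Dixon's 95% critical share of the range of its group. All 7 were at named contigs. Chance gives about 1 such set in 20. Standard-low 2 was the low library at contig 853860 (7.34 CPM, the others 10.9 to 11.6), contig 1067231 (4.89 CPM, the others 7.18 to 7.54) and contig 3031003 (2.61 CPM, the others 4.82 to 5.13). Standard-low 4 was low at contig 3131874 (4.06 CPM, the others 8.04 to 8.62) and high at the AT-rich contig 4424772 (10.3 CPM, the others 6.71 to 7.25). Low-low 3 was low at contig 754611 of the AT-rich family (8.67 CPM, the others 9.43 to 9.47). Standard-low 3 was low at contig 946466 (7.46 CPM, the others 7.76 to 7.79), the member with the smallest spread of all.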

How the results depend on the processing

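With each library left out in turn, 0 to 1 members were called by edgeR, the 1 being contig 875280 without standard-low 3. In that fit 207 of 548060 contigs were called, 3 of them among the 4754 long matched contigs. An unadjusted p under 0.05 was found in 55 members (without low-low 3) to 165 (without standard-low 3). These were 3.72% and 11.2% of members, against 4.99% and 7.50% of all contigs, so members lay below all contigs without low-low 3 and above without standard-low 3. Long matched contigs gave 4.04% and 15.1%, above the members in both. With a length minimum of 1000 bases 2 of 10601 unmatched contigs were called, against 147 of 548060 in the whole table (0.0268%). The 2 were 1022425 and 1324036, named after their values were seen, which did not pass with DESeq2. With a minimum of 2000 bases 5.24% of members (14 of 267) had groups that did not overlap, against 3.24% of all contigs. DESeq2 gave 53 members at an unadjusted p under 0.05 (3.59%, against 2.28% of all contigs) and limma voom 116 (7.85%, against 5.56%). Long matched contigs gave 3.72% and 9.38%. In deviations from the group means over all contigs, same-numbered libraries correlated at -0.00895 to 0.0311 and differently numbered ones at -0.0410 to 0.0320. The low counts of most contigs can hide a pairing, so whether replicate numbers pair the libraries was not settled. With the replicate block edgeR called 0 members and gave 97 at an unadjusted p under 0.05 (6.57%, against 5.74% of all contigs). The log2 fold change of contig 2770403 changed sign without low-low 1 (0.0117) and without standard-low 4 (0.00656), in a range down to -0.187. Of 345 values of 23 named contigs under 15 alternatives, 342 kept their direction and side of the threshold, and the cause of the exceptions was not tested. No contig held letters other than A, C, G and T, so counting other bases could give no other density. Summed levels (ratios 0.939 to 0.973) and density ratios (0.978 to 1.01) moved by less than the spread between libraries.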
